A study of Mus musculus with 3 samples.

Results

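Binding of the homeodomain transcription factor NKX2-5 was examined around 10 genes of cardiac calcium handling, namely Ryr2, Casq2, Atp2a2, Pln, Sln, Slc8a1, Cacna1c, Cacna1d, Cacna1g and Cacna1h. A peak was assigned to a gene when its midpoint lay within 100 kb of the gene body in the GENCODE M1 annotation, whatever its score. All 10 genes were found among the 22380 protein-coding genes of that annotation. Around them lay 16 of the 4418 peaks of library S1 and 22 of the 5441 peaks of library S4. Of the 2546 regions in which an S1 and an S4 peak overlapped by at least 1 bp, called shared regions here, 10 lay near these genes.

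The study mapped NKX2-5 in hearts of E11.5 mouse embryos of the Parkes strain by chromatin immunoprecipitation with the Santa Cruz antibody sc-8697 (labelled NKX-2.5 N-19) and sequencing. The samples were 2 immunoprecipitated libraries, S1 and S4, and 1 Input library, which was not analysed here. The labels name no genotype, transgene or treatment, and the sources used here do not say whether S1 and S4 came from separate hearts. The data are peak lists of a mixed tissue, so they do not tell in which heart cells a region was bound, and they hold no expression values with which to check the tissue against marker genes.

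In each heartbeat, calcium enters the cardiomyocyte through voltage-gated channels and opens the ryanodine receptor of the sarcoplasmic reticulum, which releases stored calcium onto the myofilaments. Relaxation follows when a calcium ATPase pumps it back into the store, where calsequestrin binds it, and when a sodium-calcium exchanger extrudes the rest. NKX2-5 is a core regulator of heart muscle development whose DNA-binding homeodomain recognises the core AAGTG, and MEIS1, a homeodomain factor of the cardiac progenitors, recognises TGACA.

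Shared regions were found near 5 of the 10 genes, Ryr2, Atp2a2, Slc8a1, Cacna1c and Cacna1h, beside 24.2% of all protein-coding genes. For 6 of the 10 regions, among them all those of Atp2a2 and Cacna1h, the nearest coding start was that of another gene. The region at the start of Cacna1c, the pore subunit of the L-type channel, scored highest of the 10 in both libraries. By the lower of both scores a region upstream of Ryr2, the ryanodine receptor, came next, whereas in S4 alone the region of Slc8a1, the exchanger, came next. Pln had peaks in S4 and none in S1, Cacna1d had a peak in S1 and none in S4, and the S1 and S4 peaks of Cacna1g lay apart from each other. Casq2 and Sln had no peak in either library.

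The sequences of the regions on which this account turns are given here in mm9 coordinates, as the letters of the NCBIM37 assembly. Capitals mark the NKX2-5 core AAGTG, the MEIS1 core TGACA, the spaced pair GTGNTGACA, which contains TGACA, and the GATA factor core AGATAA, each on either strand. For Ryr2, Atp2a2 and Cacna1h, the 201 bp around the midpoint of the stretch that both peaks covered are shown on the plus strand for the region whose lower score was highest (chr13:12225826-12226026, chr5:122902328-122902528 and chr17:25604817-25605017). For Cacna1c and Slc8a1, whose shared regions contained a transcript start of RefSeq, the 250 bases before that start are shown on the strand of the gene (chr6:119146428-119146677 and chr17:82137728-82137977, both on the minus strand). Their letters come from the RefSeq promoter table for GRCm38.p6 and were found once and without mismatch on the same chromosome of NCBIM37.
Ryr2 upstream: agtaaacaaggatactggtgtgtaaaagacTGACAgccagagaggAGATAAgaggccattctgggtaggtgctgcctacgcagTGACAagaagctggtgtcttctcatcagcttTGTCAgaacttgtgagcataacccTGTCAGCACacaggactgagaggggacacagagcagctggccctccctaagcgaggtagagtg
Atp2a2 past the gene end: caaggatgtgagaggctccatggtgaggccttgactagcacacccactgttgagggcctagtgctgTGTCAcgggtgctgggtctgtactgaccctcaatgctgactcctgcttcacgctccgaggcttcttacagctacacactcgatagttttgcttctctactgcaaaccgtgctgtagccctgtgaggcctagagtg
Cacna1h upstream: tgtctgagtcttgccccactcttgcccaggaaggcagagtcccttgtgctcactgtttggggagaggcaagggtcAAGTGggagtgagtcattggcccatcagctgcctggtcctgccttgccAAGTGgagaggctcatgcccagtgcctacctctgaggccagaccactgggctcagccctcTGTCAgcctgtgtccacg
Cacna1c promoter: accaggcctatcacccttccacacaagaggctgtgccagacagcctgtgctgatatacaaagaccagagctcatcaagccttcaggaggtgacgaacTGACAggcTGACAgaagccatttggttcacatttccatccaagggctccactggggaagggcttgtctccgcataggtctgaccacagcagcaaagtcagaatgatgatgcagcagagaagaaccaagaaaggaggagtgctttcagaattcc
Slc8a1 promoter: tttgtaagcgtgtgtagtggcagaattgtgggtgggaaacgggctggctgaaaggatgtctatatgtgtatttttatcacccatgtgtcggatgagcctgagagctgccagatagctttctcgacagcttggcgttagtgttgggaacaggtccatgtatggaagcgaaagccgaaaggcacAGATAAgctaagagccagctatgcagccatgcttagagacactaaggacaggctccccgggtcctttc

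A further set of 3 windows was chosen after their values were seen. The window in the first intron of Ryr2 (chr13:12196647-12196847) held both homeodomain cores close to its midpoint, the window in Ift81 upstream of Atp2a2 (chr5:123011434-123011634) held the spaced pair, and the window upstream of Ryr2 at chr13:12251229-12251429 lay in the highest-scoring peak near these genes that the other library lacked. All 3 are on the plus strand.
Ryr2 first intron: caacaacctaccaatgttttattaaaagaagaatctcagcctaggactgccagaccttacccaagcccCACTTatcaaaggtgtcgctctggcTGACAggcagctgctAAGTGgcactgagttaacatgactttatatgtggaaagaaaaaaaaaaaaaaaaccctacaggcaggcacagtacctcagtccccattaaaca
Ift81, upstream of Atp2a2: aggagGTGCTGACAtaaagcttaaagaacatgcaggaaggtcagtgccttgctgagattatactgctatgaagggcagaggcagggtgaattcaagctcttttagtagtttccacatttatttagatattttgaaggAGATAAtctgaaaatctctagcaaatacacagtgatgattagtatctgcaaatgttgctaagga
Ryr2 upstream, S1 alone: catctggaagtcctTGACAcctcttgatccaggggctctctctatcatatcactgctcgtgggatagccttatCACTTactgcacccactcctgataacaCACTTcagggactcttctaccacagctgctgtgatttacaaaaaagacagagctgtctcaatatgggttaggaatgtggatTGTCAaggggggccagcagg

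Ryr2 (chr13:11645370-12199212, minus strand) encodes the channel that releases calcium from the sarcoplasmic reticulum. It had 4 peaks in each library, of which 2 in each overlapped. The higher-scoring shared region lay between genes, 26.71 kb upstream of the start, where both peaks covered chr13:12225517-12226335. Its score was 563.86 in S1 and 905.94 in S4. Judging by its values, the score equals 10 times the negative log10 of a peak's p-value. Whether that p-value was computed against the Input is unknown here, and scores were not put on a common scale for S1 and S4. By the lower of its scores this region ranked 347 among the 2546 shared regions. Its peaks were 838 bp wide in S1 and 941 bp wide in S4. The window printed above held 4 copies of TGACA, of which 1 was part of the spaced pair 42 bp from the midpoint, and no AAGTG. The whole stretch of 819 bp held 7 copies of TGACA and 2 of AAGTG.

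The other shared region of Ryr2 lay in intron 1 of 104, 2.465 kb inside the gene, with the shared stretch at chr13:12196365-12197129. It scored 271.78 in S1 and 653.73 in S4, which ranked 1492 and 462 in the respective lists. The S1 peak of 765 bp lay wholly within the S4 peak of 1143 bp. Around its midpoint, AAGTG occurred 30 bp to the left on the minus strand and 10 bp to the right on the plus strand, with TGACA 5 bp to the left of the midpoint. The T-box core AGGTGT lay 19.5 bp to the left. The start of Ryr2 itself was outside the peaks, 2083 bp from the nearest S1 peak and 1917 bp from the nearest S4 peak.

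Of the Ryr2 peaks without a partner, the highest was an S1 peak at chr13:12250869-12251790, 52.12 kb upstream, with a score of 667.40. This was more than the score of either S1 peak of Ryr2 with a partner. It ranked 342 among all S1 peaks and 3 among the 1817 S1 peaks that S4 lacked. Of the 342 S1 peaks scoring at least as high, 339 (99.12%) were overlapped by an S4 peak, whereas the nearest S4 peak to this one lay 24.53 kb away. The nearest coding start was that of Mtr, at 41.43 kb. The window printed above held 2 copies of AAGTG, 25 and 2 bp from the midpoint, and 2 of TGACA. The other S1 peak without a partner scored 230.37 in intron 1. The S4 peaks without a partner scored 176.47 in intron 1 and 158.49 upstream, the latter 0.452 kb from the S1 peak of the shared region.

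**Figure D1:**
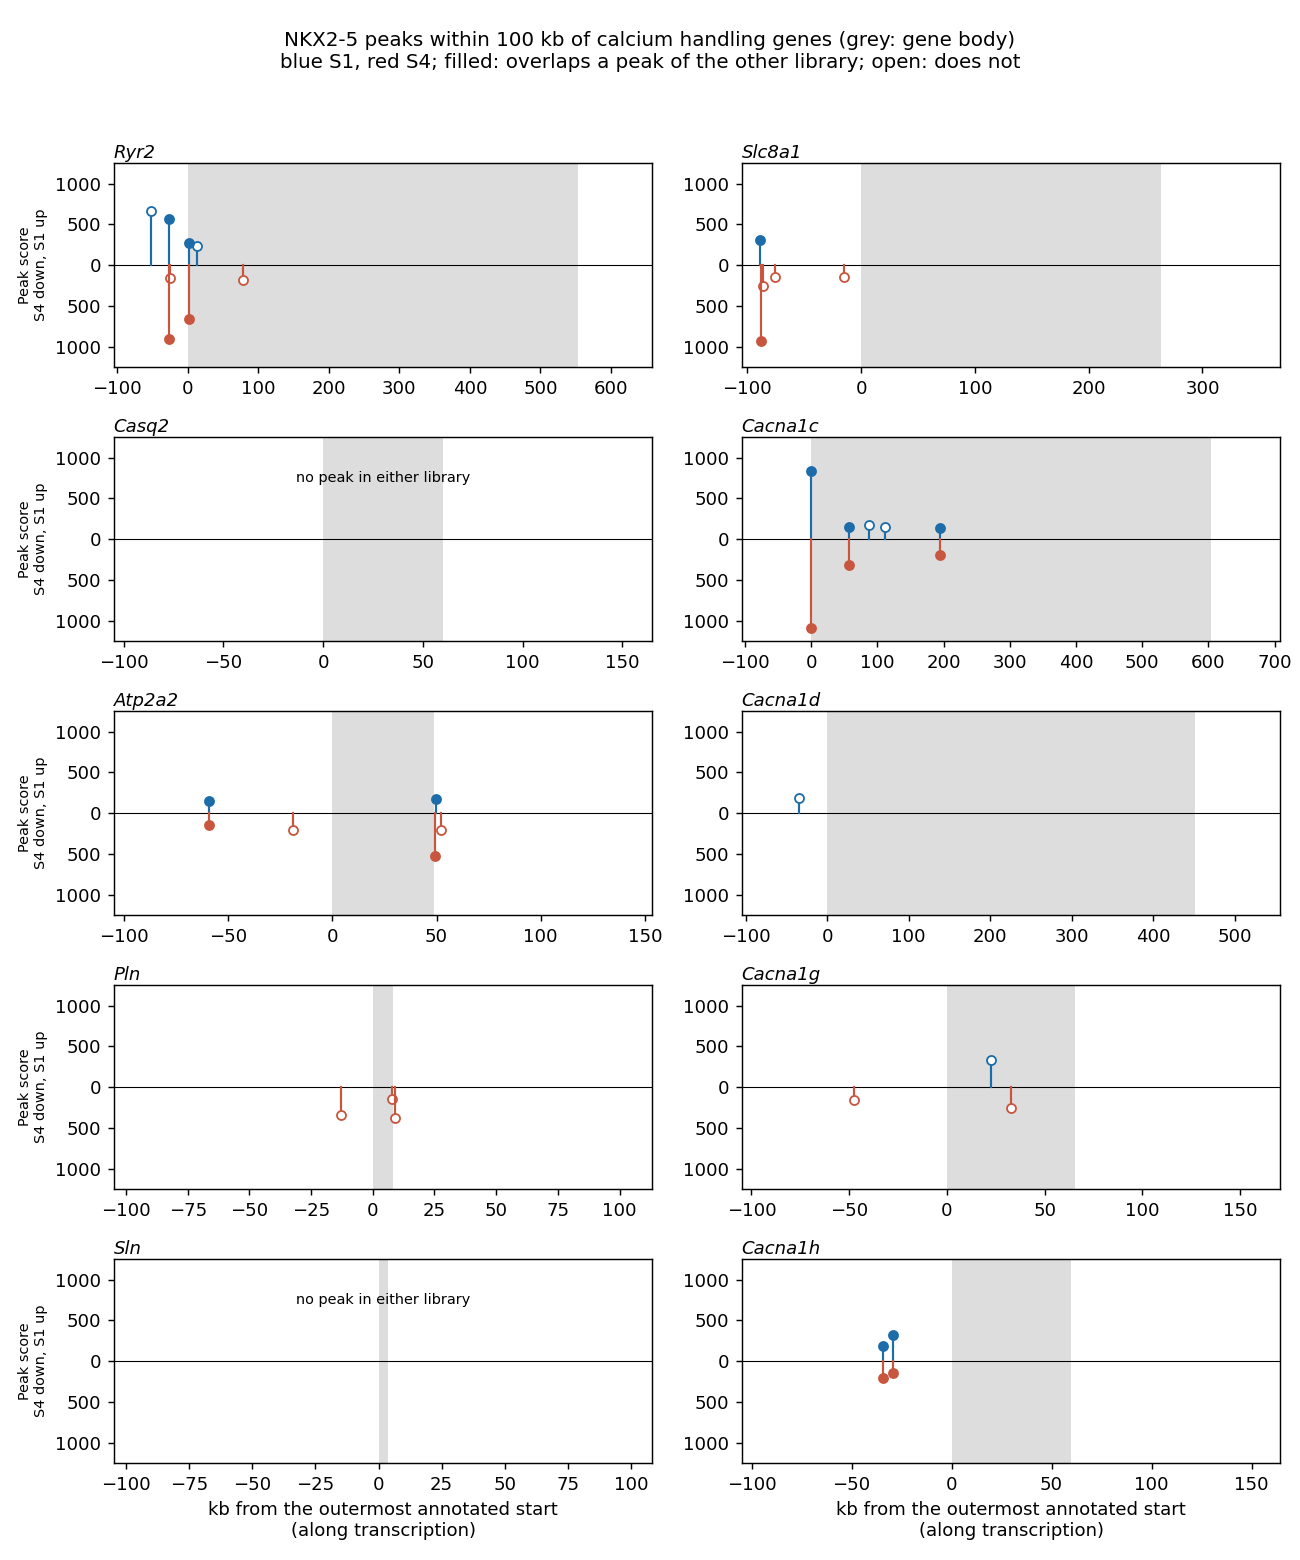
Peaks around each calcium handling gene, with the distance from the outermost annotated start in kb along transcription on the x axis, the gene body in grey and the peak score on the y axis, S1 upward in blue and S4 downward in red. Filled points overlap a peak of the other library and open points do not. The tallest pair stands at the start of Cacna1c (837.75 and 1089.59), the tallest open point is the S1 peak upstream of Ryr2 (667.40), and Casq2 and Sln are empty.

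Casq2 (chr3:101890338-101950437, plus strand) encodes calsequestrin, the calcium-binding protein of the store. No peak of either library lay within 100 kb of it. The nearest shared region lay 281.9 kb upstream of the gene body and scored 282.98 in S1 and 406.91 in S4. The 250 bases before its RefSeq start, outside any peak, held 1 copy of AAGTG and 2 of TGACA.

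Atp2a2 (chr5:122903531-122952183, minus strand) encodes SERCA2, the pump that returns calcium to the store. It had 2 peaks in S1, both overlapped, and 4 in S4. The region with the higher scores had its midpoint 1.103 kb past the gene end, with the shared stretch at chr5:122902048-122902808. It scored 177.74 in S1 and 526.55 in S4. The S4 peak was 1784 bp wide against 761 bp in S1 and extended over 142 bp of the last exon of Atp2a2, while the shared stretch ended 723 bp beyond the gene. The nearest coding start was that of Anapc7, at 11.04 kb, not that of Atp2a2. The printed window held TGACA 32 bp from the midpoint, and the 4 copies of AAGTG in the stretch lay at least 238 bp away from it.

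The other shared region of Atp2a2 lay 59.35 kb upstream, inside Ift81, at chr5:123011309-123011759. Its scores of 144.66 in S1 and 144.20 in S4 were close to the lowest score in either list, 140, and its lower score ranked 2442 of 2546. It counted as a promoter region only through a noncoding Ift81 transcript that starts less than 1 kb away, since the nearest coding start, also of Ift81, was 52.92 kb away. Its window held the spaced pair 91 bp from the midpoint and AGATAA 39.5 bp from it. The higher of the S4 peaks without a partner scored 202.36 and lay 3.389 kb past the gene end, and the other scored 200.16 at 19.08 kb upstream. No entry for Atp2a2 was found in the RefSeq promoter table.

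Pln (chr10:53057492-53065805, plus strand) and Sln (chr9:53698058-53701651, plus strand) encode phospholamban and sarcolipin, small membrane proteins that inhibit the pump. Pln had 3 peaks in S4 and none in S1. The highest scored 379.96 at chr10:53065987-53067170, 0.773 kb past the gene end, and the next scored 342.06 at 12.77 kb upstream. The third scored 144.71 and lay in exon 3 of 3, covering 679 exon bases and no coding base. Of the 1136 S4 peaks that scored at least 379.96, 1021 (89.88%) were overlapped by an S1 peak, but the nearest S1 peak to the body of Pln lay 400.1 kb away. Gm9766, another annotated gene, overlaps the midpoints of all 3 peaks. The window of the highest peak held none of the motifs searched. The 250 bases before the RefSeq start of Pln, outside any peak, held the NKX2-5, MEIS1 and GATA cores once each.

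Sln had no peak within 100 kb. The nearest S4 peak lay 280 kb from its body and the nearest S1 peak 812.2 kb. No entry for Sln was found in the RefSeq promoter table.

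Slc8a1 (chr17:81785359-82048947, minus strand) encodes NCX1, the sodium-calcium exchanger. All its peaks lay upstream of the gene body as GENCODE M1 gives it, 1 in S1 and 4 in S4. The shared region, at chr17:82136743-82138153, lay 88.5 kb from the outermost GENCODE start and scored 314.26 in S1 and 934.74 in S4. The S4 score was 2.97 times the S1 score, the largest ratio among the 10 shared regions, although the peaks were of similar width, 1520 bp in S1 and 1740 bp in S4. The stretch of 1411 bp was the widest of the 10. A RefSeq start of Slc8a1 matched the assembly at position 82137727, which is 88.78 kb upstream of the outermost GENCODE start and inside both peaks. The region that was distal in GENCODE M1 was thus at a promoter in RefSeq, with its midpoint 279 bp from that start. The shared stretch at the RefSeq start reached 426 bp upstream of that start and 984 bp downstream of it.

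The printed promoter of Slc8a1 held AGATAA 68 to 63 bp upstream of the start, and held no NKX2-5 or MEIS1 core. This GATA core occurred in 9.99% of the 32851 RefSeq promoters of the same length. The whole shared stretch, of which the printed bases cover only a part, did hold the other cores. It held TGACA in 4 places, 1 of them 43 bp from the midpoint, and AAGTG in 1 place, 415 bp from it. Of the S4 peaks without a partner, the highest scored 260.68 and lay 0.694 kb from the S1 peak of the shared region. The other peaks without a partner scored 140.86 and 140.15, near the lowest score in the list.

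Cacna1c (chr6:118542314-119146249, minus strand) encodes Cav1.2, the main L-type channel pore of ventricular muscle. It had 5 peaks in S1 and 3 in S4, and each of the S4 peaks overlapped an S1 peak. The region at the start of the gene, with the shared stretch at chr6:119146209-119147148, scored 837.75 in S1 and 1089.59 in S4. These were the highest scores in either library near the 10 genes and ranked 208 and 177 in the respective lists. Among the shared regions it ranked 169 of 2546 by the lower score. The midpoints of its peaks were 13 bp apart, and the S1 peak of 940 bp lay wholly within the S4 peak of 1812 bp. The midpoint lay 429 bp upstream of the GENCODE start and 251 bp from a RefSeq start at position 119146427, which was inside both peaks. The gene Dcp1b overlaps the midpoint of both peaks, so the region lies in the body of Dcp1b as well as at the start of Cacna1c.

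The printed promoter of Cacna1c held TGACA at 153 to 149 bp and at 145 to 141 bp upstream of the RefSeq start, both on the strand of the gene, and it held no NKX2-5 core. The MEIS1 core occurred in 40% of all RefSeq promoters of this length. The whole stretch held the MEIS1 core 5 times, the NKX2-5 core 3 times and the GATA core in 2 places.

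The other shared regions of Cacna1c lay within the gene and scored low in S1. In intron 3 of 46, 194.6 kb inside, the region at chr6:118951397-118951974 scored 143.08 in S1 and 198.23 in S4. Its window held 2 copies of AAGTG and 1 each of TGACA and AGATAA, and the spaced pair lay 127 bp from the midpoint. In intron 1, 56.85 kb inside, the peaks scored 144.30 in S1 and 314.86 in S4 and overlapped only at their edges. The shared stretch, chr6:119089332-119089464, was 133 bp long, which was 26% of the S1 peak and 14.4% of the S4 peak, and its window held none of the motifs searched. The S1 peaks without a partner scored 176.92 and 154.76, both in intron 1. The former, at chr6:119059238-119059782, lay 725 bp from a RefSeq start of Cacna1c at position 119058513 that was 87736 bp from the nearest GENCODE start. Its window held AAGTG and TGACA overlapping each other, with centres 18 and 15 bp from the midpoint.

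Cacna1d (chr14:30853135-31304342, minus strand) encodes Cav1.3, the L-type channel pore prominent in the sinoatrial node. Its only peak was an S1 peak 34.73 kb upstream at chr14:31338760-31339385, with a score of 180.81. The peak lay wholly on annotated exon bases of Dcp1a, none of them coding, and the nearest coding start was that of Tkt. The nearest S4 peak to the gene body was 163.1 kb away. Neither of its RefSeq starts lay in a peak.

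Cacna1g (chr11:94269705-94335414, minus strand) and Cacna1h (chr17:25511230-25570728, minus strand) encode the T-type channel pores Cav3.1 and Cav3.2, which open at lower voltages. Cacna1g had an S1 peak of 335.14 in intron 9 of 37 and an S4 peak of 258.93 in intron 13, which were 9.283 kb apart. Its remaining S4 peak scored 155.56 and lay 45 bp from the start of Mycbpap. No peak of Cacna1g therefore recurred, and the nearest shared region lay 910.5 kb from its body. No entry for Cacna1g or Cacna1h was found in the RefSeq promoter table.

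Cacna1h had 2 peaks in each library, and all overlapped. At chr17:25599756-25600267, 29.28 kb upstream, the scores were 320.34 in S1 and 147.38 in S4. This was the region near the 10 genes with the lowest ratio of S4 to S1 score, 0.46. At chr17:25604627-25605208, 34.19 kb upstream, the scores were 189.32 in S1 and 210.41 in S4. The printed window of the latter held AAGTG 23 bp to the left and 25 bp to the right of the midpoint, and TGACA 85 bp from it. Both regions lay nearer to the coding start of Tekt4, at 8.524 and 3.618 kb, than to that of Cacna1h.

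The count of genes with a peak was read against all protein-coding genes. An S1 peak lay within 100 kb of 7 of the 10 genes, beside 38.4% of protein-coding genes, and an S4 peak within 100 kb of 7, beside 44.6%. A shared region lay near 5 of the 10, beside 24.2%. Long genes have wider windows, and several of these genes are long. Of the 4 members of at least 100 kb, Ryr2, Slc8a1, Cacna1c and Cacna1d, 3 had a shared region, beside 36.0% of coding genes of that length. Of the 6 shorter members, 2 had one, beside 22.8%. Per length of window there were 2.428 shared regions per Mb around the members and 1.186 per Mb around all coding genes. With 10 genes these counts are descriptions, and no test was made on them.

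The libraries matched each other near these genes about as they did elsewhere. Of the 16 S1 peaks, 10 were overlapped by S4, a share of 62.5% (exact 95% Clopper-Pearson interval 35.4 to 84.8%), beside 58.87% of all S1 peaks. Of the 22 S4 peaks, 10 were overlapped by S1, a share of 45.45% (24.4 to 67.8%), beside 46.96% of all S4 peaks. The mean number of peaks per library was 19 ± 4.24 (SD, n = 2). Intervals cover counting error only, and the depth of the libraries is unknown.

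Scores near the members were higher in S4 than in S1 in 8 of the 10 shared regions, and the same held for 60.6% of all shared regions. The exceptions were the Cacna1h region at 29.28 kb and, by a ratio of 0.997, the Ift81 region upstream of Atp2a2. The median ratio of S4 to S1 score was 1.496 near the members, with a range of 0.46 to 2.97, and 1.115 over all shared regions. The median score of overlapped S1 peaks was 230.5 near the members and 278.7 over all shared regions, whereas that of overlapped S4 peaks was 420.7 near the members and 315.1 over all of them. Since the scores have no common scale, their ratio is not one of amounts of bound NKX2-5. The median shared stretch was 671.5 bp near the members and 627 bp over all shared regions, and the median GC content of the windows was 51.49% and 49.75%.

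**Figure D2:**
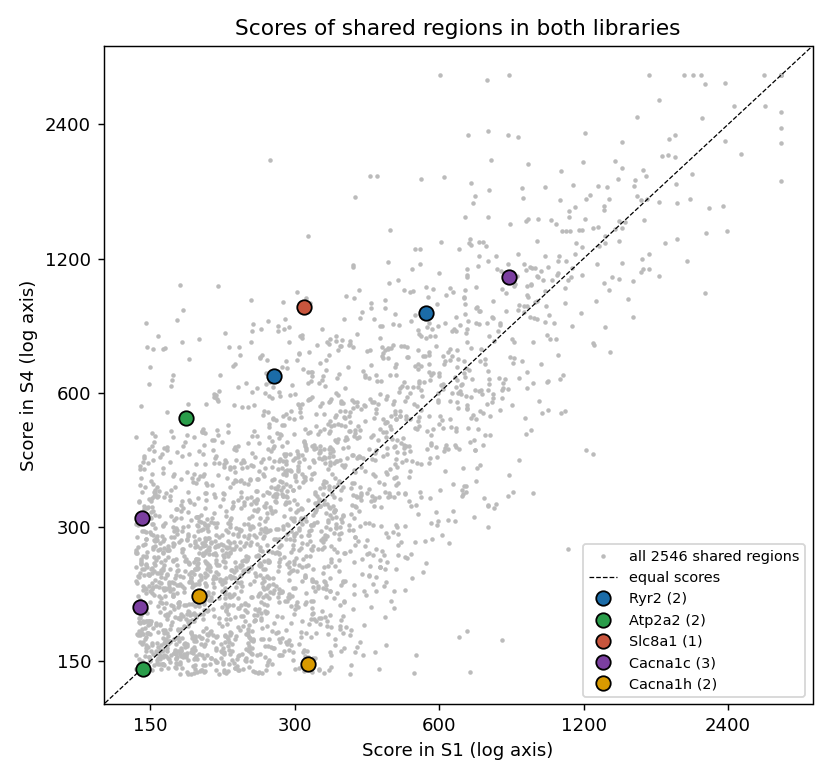
Scores of the shared regions, with the S1 score on the x axis and the S4 score on the y axis, both logarithmic. Grey points are all 2546 shared regions, coloured points the 10 near calcium handling genes, and the dashed line marks equal scores. Of the coloured points, the Cacna1c promoter (837.75 and 1089.59) stands highest on both axes, Slc8a1 lies farthest above the line (314.26 and 934.74) and a Cacna1h region farthest below it (320.34 and 147.38).

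By position, 2 of the 10 shared regions were promoter regions, with the midpoint within 1 kb of a GENCODE transcript start (20%, interval 2.52 to 55.6%, beside 17.12% of all shared regions). A further 3 were in introns (40.69% of all), 5 were between genes (39.12% of all) and 0 were in exons (3.064% of all). Adding the RefSeq starts of the members, an alternative chosen after seeing the data, made the Slc8a1 region the third promoter region. Counting coding starts only left that of Cacna1c. A member's own coding start was the nearest for 4 of the 10 regions, namely those of Ryr2, Slc8a1 and the Cacna1c promoter, and another gene's for 6. Of those 6, the 2 in introns of Cacna1c lay inside the gene itself, and the other 4, near Atp2a2 and Cacna1h, lay outside it.

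In windows of 201 bp around the midpoints, AAGTG occurred in 4 of the 10 regions (40%, interval 12.2 to 73.8%), beside 64% of all shared regions and 39.4% of windows 2 kb away. TGACA occurred in 7 of the 10 (70%, interval 34.8 to 93.3%), beside 64.6% and 40.1%. The spaced pair GTGNTGACA occurred in 2 of the 10 (20%, interval 2.52 to 55.6%), beside 9.54% and 0.864%, and these were the regions upstream of Ryr2 and in Ift81. The intervals are wide enough to hold the share of all shared regions in each case. The window of the Cacna1c start held neither core whole, and the nearest matches were TGACA 100 and 108 bp and AAGTG 104 bp from the midpoint.

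Over the whole stretches, AAGTG occurred in 8 of the 10 and TGACA in 9, beside 89.8% and 86.8% of all shared stretches. The regions without AAGTG were those in Ift81 and in intron 1 of Cacna1c, and the latter, with its stretch of 133 bp, was also the one without TGACA. Cores of other factors and a longer NKX2-5 motif were searched after seeing the data. TNAAGTG, which contains AAGTG, occurred in 2 of the 10 windows, both of Cacna1h, beside 32.3% of all. AGATAA occurred in 3 of the 10 windows (interval 6.67 to 65.2%), beside 19.1%, and in 7 of the 10 stretches (interval 34.8 to 93.3%), beside 39.1%. Both intervals hold the share of all shared regions. The T-box core AGGTGT occurred in 1 of the 10 windows, that of the Ryr2 intron, beside 13.7%.

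**Figure D3:**
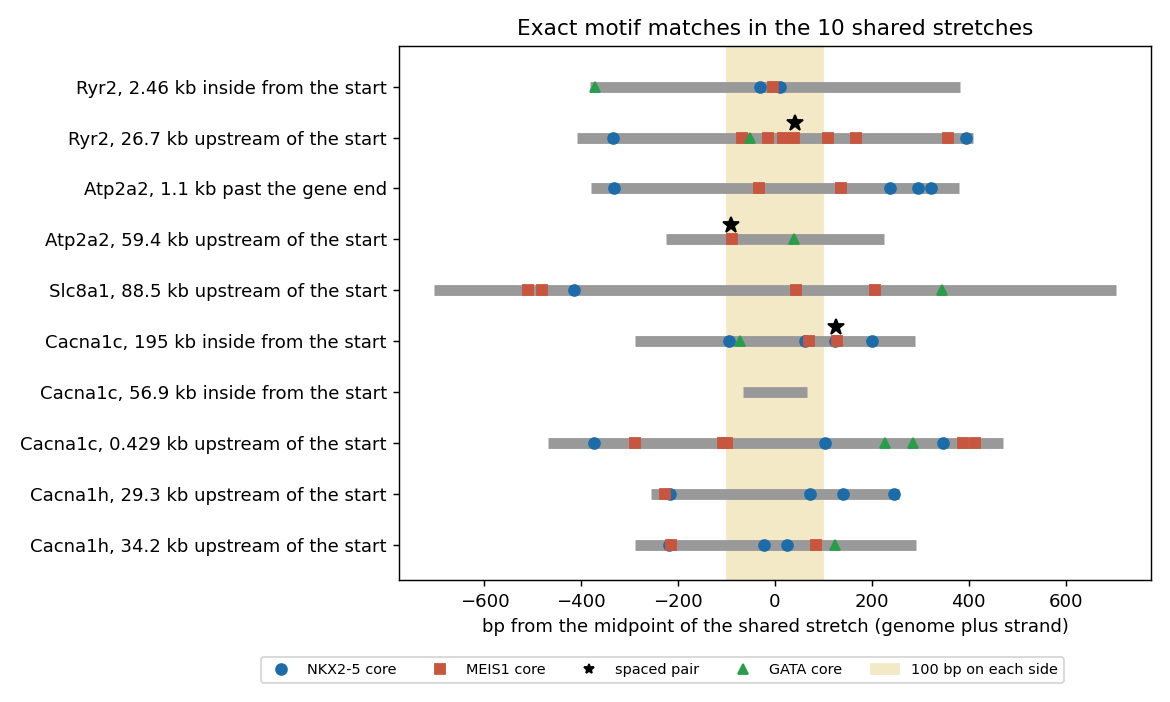
Exact matches of 4 motifs in the shared stretches near calcium handling genes, 1 row per region, with the distance from the midpoint in bp on the x axis. Grey bars are the stretches covered by both peaks, and the shaded band is the 100 bp on each side that was searched for the shares. Within the band, the Ryr2 intron and the Cacna1h region 34.2 kb upstream have NKX2-5 cores on either side of the midpoint. The Cacna1c region 195 kb inside the gene has them too, farther from the midpoint. The nearest matches at the Cacna1c start lie at or just beyond the edge of the band.

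**Figure D4:**
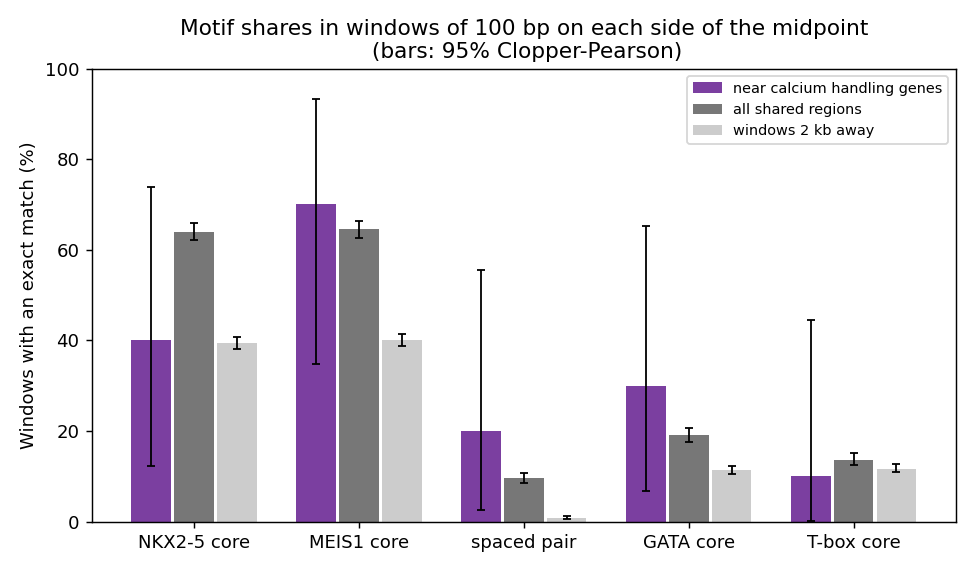
Share of 201-bp windows with an exact match, in percent, for the 10 shared regions near calcium handling genes, all 2546 shared regions and 5090 windows 2 kb away. Bars are shares and lines exact 95% Clopper-Pearson intervals, which for the 10 regions span 12.2 to 73.8% for the NKX2-5 core and 34.8 to 93.3% for the MEIS1 core.

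The windows of peaks without a partner were searched in the same way. AAGTG occurred in 5 of the 6 windows of S1 peaks that S4 lacked (83.3%, interval 35.9 to 99.6%) and in 4 of the 12 windows of S4 peaks that S1 lacked (33.3%, interval 9.92 to 65.1%). Over all peaks without a partner the shares were 56.6% in S1 and 53.4% in S4, and the intervals near the members hold both. TGACA occurred in 3 of the 6 (50%) and in 7 of the 12 (58.3%), beside 50.6% of all S1 and 50.3% of all S4 peaks without a partner.

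A longer list of 55 other calcium genes was counted in the same way. A shared region lay near 24 of them (43.6%), beside 24.2% of all protein-coding genes. An S1 peak lay near 30 and an S4 peak near 35, beside 38.4% and 44.6% of all protein-coding genes. Of the 24 listed genes of at least 100 kb, 14 had a shared region (58.3%), beside 36.0% of all coding genes of that length. Of the 31 shorter genes 10 had one (32.3%), beside 22.8%. By role, calcium sensors and kinases had one in 6 of 8 genes, store proteins in 2 of 3, genes of store-operated entry or mitochondrial uptake in 3 of 5, auxiliary subunits of the voltage-gated channels in 6 of 13, release channels and their partners in 5 of 12, and the remaining channel pores in 2 of 6. Of the 8 other pumps and exchangers 0 had one, beside the same 24.2% of all coding genes, and an S4 peak lay near 3 of the 8. For most of the 24 genes, the highest-scoring shared region had the coding start of another gene nearest, although some of these regions lay inside the listed gene. The counts are thus of regions near a gene, not of regions assigned to it. These counts are small, and no test was made on them.

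The listed genes with the highest shared regions were Cacna2d2, Stim1, Cacna2d4, Calm3 and Camk2d. Cacna2d2 encodes an auxiliary channel subunit. The region near it lay downstream of the gene body of 129.7 kb, 219.9 kb from the outermost start. This region scored 2559.47 in S1 and 2059.45 in S4, with the start of Sema3b nearest at 10.28 kb. Stim1, a calcium sensor of the store, had a region inside the gene with scores of 898.26 and 1637.02. The region of Cacna2d4, another auxiliary subunit, was the same one that lay at the start of Cacna1c. Calm3, which encodes calmodulin, had a region downstream of the gene with scores of 826.07 and 917.17, with the start of Ptgir nearest at 1.44 kb. Camk2d, the main calcium/calmodulin-dependent kinase of the heart, had a region inside the gene with scores of 534.90 and 499.35.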

How the data were processed

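According to the methods of the study and the submitters' processing notes, reads were handled with CASAVA 1.4 and Bowtie, aligned to mm9, and peaks were called with MACS. The authors deposited a peak list for each of the 2 ChIP libraries, called separately. The deposited score of a peak is, as read from the values, the negative log10 of its p-value times 10, and no deposited score was under 140. It is not scaled between libraries. Whether the Input served as control is not given in the sources used here, and the Input was not analysed here. Read numbers were not used, so depth and the precision of a score are unknown.

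Coordinates were counted from 1. Gene bodies, transcript starts, exons and introns came from GENCODE M1 on NCBIM37, which is mm9. The peak set of a gene was every peak with its midpoint within 100 kb of the gene body. Peaks overlapping by at least 1 bp were shared, and the same numbers were obtained with bedtools 2.31.1. Pairs with a peak in common were merged. Summits were not used, so motifs were searched as exact letters on both strands within 100 bp of the middle of the stretch that both peaks covered. Windows 2 kb to either side were the background. Exact Clopper-Pearson intervals of shares are at the 95% level. RefSeq promoters were matched to genes by symbol, with 9 entries for 6 of the 10 genes, and placed by exact sequence match. The overlap and motif steps were tested on simulated data. Python 3.11.15, numpy 2.4.6, scipy 1.17.1, pysam 0.24.0 and matplotlib 3.10.9 were used.

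Named were all 10 genes, every shared region near them, the highest peak without a partner of each library and gene, and, of the longer list, the 5 genes with the highest lower score. Further peaks without a partner were named after their values were seen. The 10 genes, the longer list and these rules were chosen with earlier results of these data known. With a single condition there was no comparison between groups, and no p-value is given. Other windows, overlap rules, score limits and motif widths were tried as alternatives.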

Additional observations from a re-analysis of the deposited data

How the results depend on the processing

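Of 55 values recomputed under alternatives for 11 results, 38 moved by less than the spread and 17 by more. Shared regions need both libraries, so their counts have no spread between libraries, and this split is a description only. With a window of 10 kb, the mean number of peaks was 9.5, with 5 shared regions near 3 genes. With scores of at least 200, these were 10.5, 4 and 3. The median scores of shared peaks rose to 439.1 in S1 and 920.3 in S4, as dropping low scores must make them do. Keeping peaks with the gene's own coding start nearest gave 9, 4 and 3. It kept the same 4 shared regions, and so the same medians of 439.1 and 920.3. With midpoints within 150 bp, 6 regions were shared. AAGTG occurred in 80% of whole stretches. Within 25 bp, TGACA occurred in 20% and the spaced pair in 0%, where fewer bases were searched. Leaving out a library gave 16 to 22 peaks. The promoter share was 40% with a limit of 5 kb and, chosen after seeing the data, 30% with RefSeq starts added and 10% with coding starts only.

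The count of shared regions rests on few peaks, of which many score near the lower limit. Of the peaks near these genes, 8 of 16 in S1 and 9 of 22 in S4 scored under 200, beside 46.24% and 41.59% of all peaks. Depth is unknown, so a gene without a peak is one where none was listed, not one shown to be unbound. No paired analysis was possible because the study has a single ChIP group.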

Other observations

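Shared regions beyond the 100 kb limit were nearest to the genes that had none within it as follows. For Cacna1d, whose nearest shared region lay 717.5 kb upstream, the nearest coding start to that region was of Tnnc1, the cardiac troponin C gene, and the scores were 243.24 in S1 and 778.12 in S4. For Pln, the nearest shared region lay 1376 kb upstream with scores of 312.13 and 253.68, and the nearest coding start to it was that of Vgll2. For Sln, it lay 934.2 kb downstream, with scores of 336.49 and 143.02, nearest to the start of Crabp1.

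In the S4 list, peaks lay just past the ends of both Atp2a2 and Pln, the genes of the pump and its inhibitor. The Atp2a2 peak scored 526.55 with its midpoint 0.751 kb past the end, and the Pln peak scored 379.96 with its midpoint 0.773 kb past the end. S1 had a peak of 177.74 at the former and none at the latter. The midpoint of the Pln peak also lay inside Gm9766, whose coding start was nearest to it at 2.358 kb. These 2 peaks were picked after seeing the data, and nothing was tested. The share of all genes with an S4 peak just past the end was not counted.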
